A study of Mus musculus with 6 samples.

Results

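Kinesins are motor proteins that walk along microtubules, and their genes were compared here between the injured spinal cord of mice trained on a rotarod and that of injured mice without training. The genes were chosen by a name rule, set with earlier results of these data known. It took protein-coding genes whose symbol was Kif, a number and optional lower-case letters, or Klc1 to Klc4. This gave 43 of the 54532 genes in the table, namely 15 genes of axonal transport motors, 4 light chains, 12 mitotic motors, 6 motors linked to cilia, 5 other motors and Kif1bp. Kif1bp matches the name rule but encodes a protein that binds kinesins and is not itself a motor. The axonal transport class is broad and also holds Kif17, a dendritic motor, and Kif13a and Kif16b, motors of endosomes.

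All mice were C57BL/6J and had an injured spinal cord, and they were assigned at random to a group, per the design text. Both groups are labelled as taken at 28 days, counted from training. One group had rotarod training, walking on a rotating rod, and the other had none. Total RNA of the cord was sequenced in 3 libraries per group. No uninjured cord is among the samples, so every value below is of injured cord, and the labels give no sex, age, injury level or distance from the lesion. Whether the 3 libraries of a group are 3 separate mice is not stated, so p-values refer to the spread among these samples only, and that spread may be technical.

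Kinesin heavy chains hold the motor domain, which splits ATP to step along the microtubule, and most of them move towards the plus end. In an axon the plus ends point to the terminal, so these motors carry vesicles, mitochondria, neurofilaments and RNA outward, while dynein carries cargo back. Other family members do not carry axonal cargo: mitotic kinesins build the spindle, order chromosomes and act in cytokinesis, and ciliary kinesins serve cilia and the signalling that depends on them. A spinal cord in which axons are cut or spared, and in which glia can divide after injury, holds cells that use each of these classes.

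Total counts were 15814104 to 26092014 per library, the highest in trained replicate 1, and 3 counts corresponded to 0.116 to 0.192 CPM (counts scaled to library size with TMM factors). Kinesin genes took 0.630% to 0.755% of all counts. Markers of neurons (10 of 10), oligodendrocytes (6 of 6) and astrocytes (6 of 6) were measured in the tissue, and none of these was at 0. All 6 neutrophil markers had a positive log2 fold change, with summed levels of 30.6 to 64.3 CPM in trained and 14.6 to 22.1 CPM in untrained libraries, and their part in the kinesin values was not tested. In a bulk sample, fewer cells of a type and less RNA per cell cannot be told apart.

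No kinesin gene passed the test between trained and untrained cord. Of the 43 genes, 38 had enough counts to be tested, and 0 of these had an adjusted p below 0.05 in edgeR's quasi-likelihood test, where 0.0591% of all 16909 tested genes did. DESeq2 also called 0 kinesins (0.283% of the 30362 genes with a count passed), as did limma-voom (0.0710% of tested genes passed). DESeq2 left some of those genes without an adjusted p, among them Kif12 and Kif28. At an unadjusted edgeR p below 0.05 there were 4 kinesins, all in the broad axonal transport class and all lower in trained cord: Kif13b, Kif16b, Kif13a and Kif5c. That set depended on the libraries and the tool. Without trained replicate 3 it held only Kif6 and Kif26b, both higher in trained cord and neither axonal, and without untrained replicate 3 it held 0 kinesins. In limma-voom Kif6 took the place of Kif5c. Among all tested genes 5.55% were lower and 4.47% higher at that level, 10.0% in all. The log2 fold change (trained over untrained) was below 0 in 27 of the 38 tested kinesins, against 52.0% of all tested genes. Its median was -0.10 for the kinesins and -0.0080 for all tested genes.

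The precision differed by class. Over the 38 tested kinesins, the 95% interval of the fold change lay inside 1.5-fold in either direction for 24. These were 15 of 15 axonal transport motors, 3 of 4 light chains, 3 of 3 other motors, 2 of 6 ciliary motors, Kif1bp and 0 of 9 mitotic motors. The median standard error (SE) of a log2 fold change was 0.0919 for axonal transport motors and 0.317 for mitotic motors, which had far fewer reads. Differences of more than 1.5-fold were thus outside the interval of each axonal transport motor, and inside that of each tested mitotic motor.

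**Figure D1:**
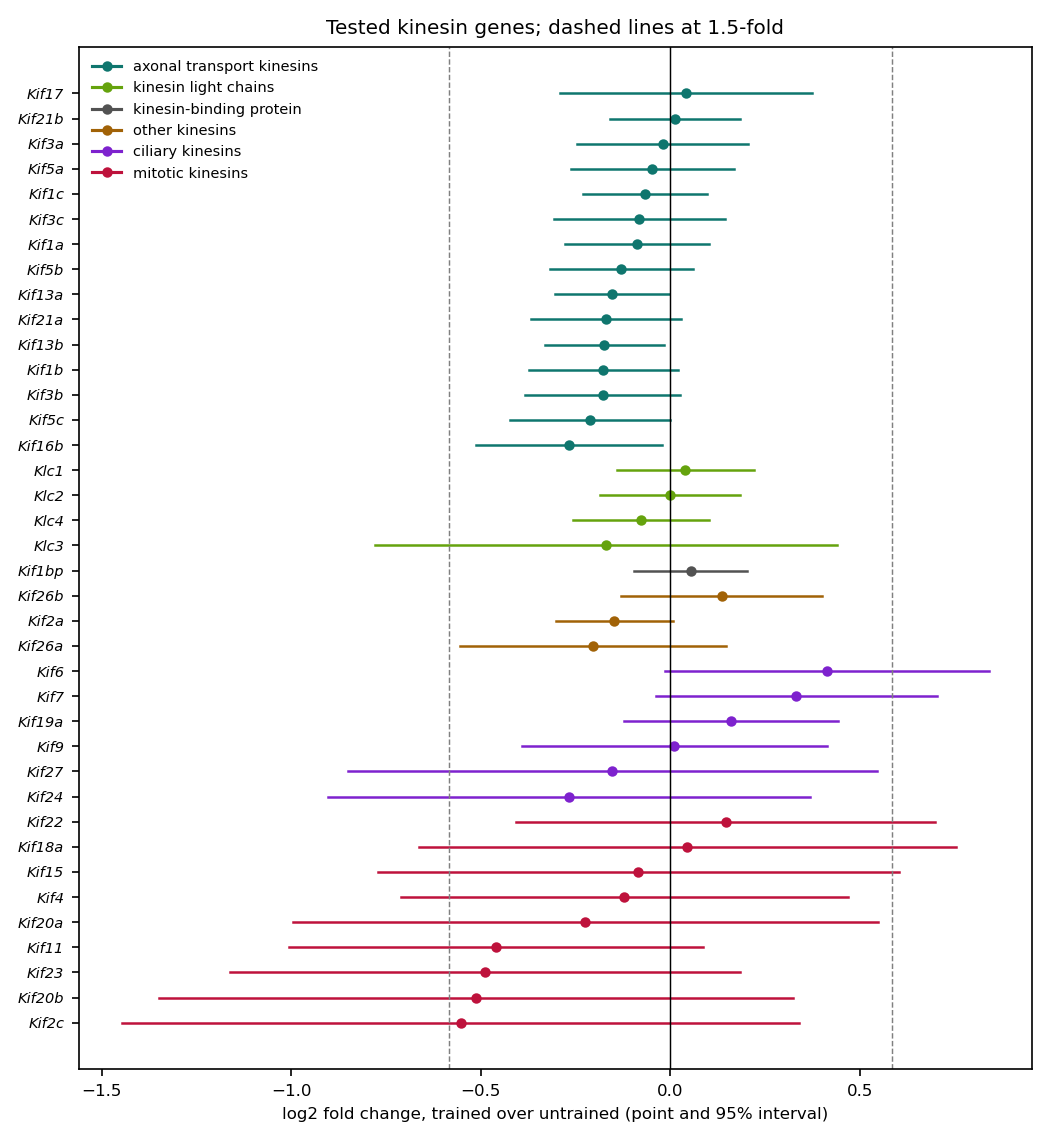
Log2 fold change (trained over untrained, horizontal axis) of the 38 tested kinesin genes, with points for the edgeR estimate, lines for the 95% interval and dashed lines at 1.5-fold. All 15 axonal transport motors lie inside the dashed lines, while the 9 mitotic motors have intervals that cross at least one of them.

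Axonal transport motors spanned a wide range of levels per kilobase, from Kif5a, Kif1a, Kif5c, Kif5b and Kif1b (percentiles 95.9 to 99.1 among protein-coding genes) down to Kif16b (41) and Kif17 (38.3). Kinesin-1, the motor of fast transport of vesicles and mitochondria and of slow transport of neurofilaments, is a tetramer of heavy chains from Kif5a, Kif5b or Kif5c and of light chains. Per kilobase of gene length, Kif5a (chr10:127225696-127263348, minus strand, GRCm38) was at a mean of 182 CPM per kb over the 6 libraries, above 99.1% of the 18112 protein-coding genes with a count. Kif5c (chr2:49619298-49774778, plus strand) was at 86.6 CPM per kb and Kif5b, the form made in most cell types, at 72.5 CPM per kb (chr18:6201002-6242174, minus strand).

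Kif5a, the neuronal form whose human gene is mutated in spastic paraplegia and in amyotrophic lateral sclerosis, had 1366, 1288 and 1091 CPM in trained replicates 1 to 3 and 1177, 1399 and 1296 CPM in untrained replicates 1 to 3. The groups overlapped, and the lowest value was that of trained replicate 3. The means were 1248 ± 141 and 1291 ± 111 CPM (SD, n = 3), with a log2 fold change of -0.05 ± 0.10 (SE) and an edgeR adjusted p of 0.910. Over 13 alternative analyses the log2 fold change ranged from -0.12 (without trained replicate 1) to 0.06 (without trained replicate 3).

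Kif5c, another neuronal heavy chain, had 599, 620 and 501 CPM in trained and 598, 708 and 685 CPM in untrained replicates 1 to 3. Trained replicate 3 was again lowest, and trained replicates 1 and 2 were above untrained replicate 1. Its log2 fold change was -0.21 ± 0.10, the lowest of the 3 heavy chains, with an edgeR adjusted p of 0.497. Over the 13 alternatives it ranged from -0.27 (without untrained replicate 1) to -0.10 (without trained replicate 3). Kif5b had 523, 562 and 452 CPM in trained and 543, 572 and 566 CPM in untrained libraries, with a log2 fold change of -0.13 ± 0.09 (edgeR adjusted p = 0.650). Kif5b ranged from -0.20 (without trained replicate 2) to -0.03 (without trained replicate 3) over the 13 alternatives. Its 3 untrained libraries lay close together, and trained replicate 2 was within their range.

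The mix of heavy chains was also compared per kilobase. Kif5a made up 54.4% ± 1.38 of the summed heavy-chain level in trained and 52.2% ± 0.802 in untrained cord (SD, n = 3), and the groups overlapped. Kif5c made up 24.0%, 25.0% and 24.4% in trained replicates 1 to 3 and 25.7%, 26.3% and 26.8% in untrained replicates 1 to 3, so every trained library was below every untrained one. Kif5b took 21.1% and 21.5% on average. Among 13 such shares within the Kif5, Kif1, Kif3 and Klc families, 4 did not overlap between groups. Of all tested genes taken singly, 8.69% were lower and 8.13% higher in trained cord without overlap. Shares of a family are not independent of each other, and 3 against 3 libraries allow no exact two-sided permutation p below 0.1, so no p-value is given for them.

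Light chains couple kinesin-1 to cargo and hold the idle motor folded. Klc1 (chr12:111758849-111807844, plus strand), a light chain enriched in neurons, was at 185 CPM per kb, close to Kif5a. It had 807, 770 and 712 CPM in trained and 685, 785 and 759 CPM in untrained libraries, with overlapping groups and a log2 fold change of 0.04 ± 0.08 (edgeR adjusted p = 0.915). Klc2, also made in neurons, was at 86.4 CPM per kb, with 357 ± 36.5 CPM in trained cord and 358 ± 14.9 CPM without training. The interval of its fold change ran from 0.879 to 1.13. Klc4 was at 32.1 ± 1.95 and 33.8 ± 0.368 CPM, and Klc3 at 1.75 ± 0.332 and 1.98 ± 0.257 CPM. The use of strand in counting is not given, so reads of genes that overlap cannot be fully told apart. Klc1 overlaps Xrcc3, whose reads were 2.9% of those of Klc1, while Klc3 overlaps Ercc2, whose reads were 741% of those of Klc3.

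The ratio of summed kinesin-1 heavy chains to summed light chains per kilobase was 1.14, 1.2 and 1.08 in trained and 1.22, 1.27 and 1.23 in untrained replicates 1 to 3. All trained ratios were below all untrained ones. Without overlap, 8.69% of all tested genes taken singly were lower and 8.13% higher in trained cord, but a ratio of sums is not a like measure to a single gene's level. The sums themselves overlapped: heavy chains were at 328 ± 35.3 and 353 ± 25.9 CPM per kb, and light chains at 288 ± 20.3 and 284 ± 15.9 CPM per kb, in trained and untrained cord.

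**Figure D2:**
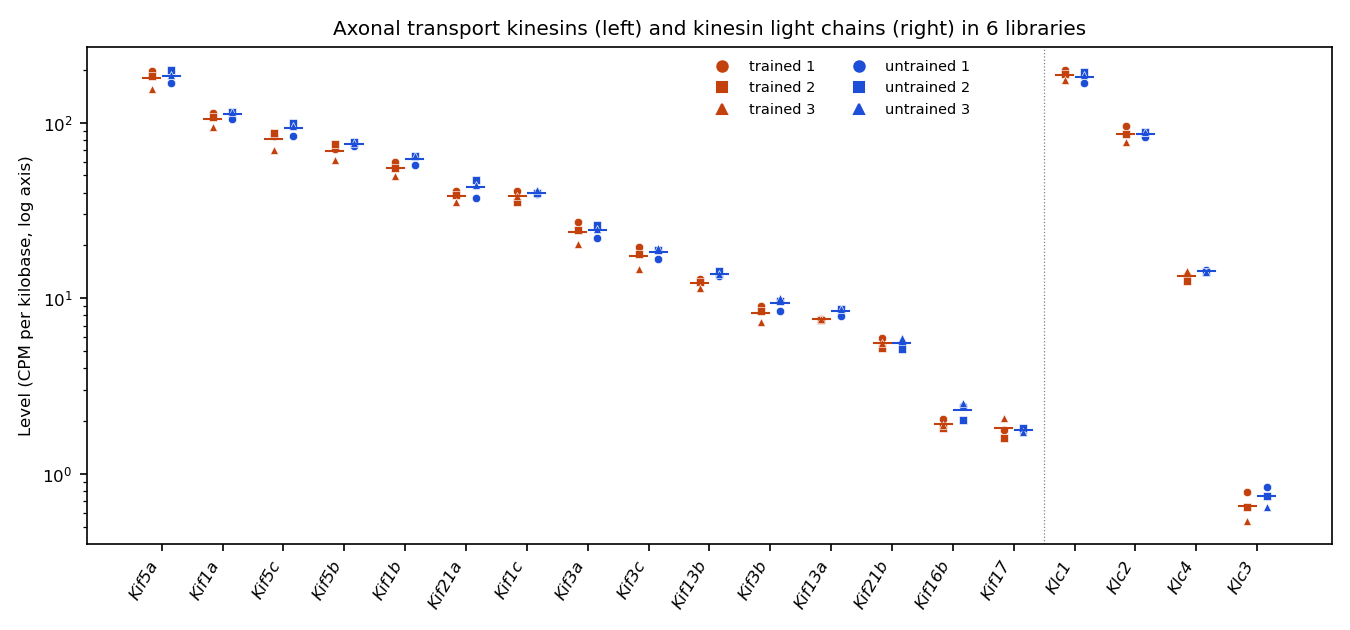
Level of the 15 axonal transport motors (left of the dotted line) and 4 light chains (right) in each of the 6 libraries, in CPM per kilobase on a log axis, with a bar at each group's mean. Kif5a and Klc1 stand highest, at 182 and 185 CPM per kb over all libraries, and trained replicate 3 is the lowest library for 10 of the 15 axonal motors.

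Kinesin-3 motors carry the precursors of synaptic vesicles, dense-core vesicles and, through Kif1b, mitochondria. Kif1a (chr1:93015464-93101951, minus strand), the neuronal member, was at 108 CPM per kb. It had 1058, 999 and 883 CPM in trained and 980, 1074 and 1071 CPM in untrained libraries, with a log2 fold change of -0.09 ± 0.09 (edgeR adjusted p = 0.780). Over the 13 alternatives this ranged from -0.15 (without trained replicate 1) to 0.0020 (without trained replicate 3). The groups overlapped through untrained replicate 1, which lay below trained replicates 1 and 2.

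Kif1b (chr4:149176319-149307693, minus strand) had 1055, 972 and 871 CPM in trained and 1007, 1134 and 1135 CPM in untrained libraries. Trained replicate 1 lay above untrained replicate 1, and the log2 fold change was -0.18 ± 0.09 (edgeR adjusted p = 0.536). Its range over the 13 alternatives was -0.25 (without trained replicate 1) to -0.09 (without trained replicate 3). As a share of Kif1a, Kif1b and Kif1c per kilobase, Kif1b took 27.7% ± 0.480 in trained and 29.0% ± 0.532 in untrained cord, with no overlap. The gene lengths used were 17608 bases for Kif1b and 9330 bases for Kif1a, and the size of each share depends on them. Kif1c, a more widely expressed relative, was at 278 ± 19.7 and 291 ± 8.02 CPM. Kif1bp, whose product was first described as a partner of a Kif1b motor, was at 136 ± 5.99 and 131 ± 4.93 CPM, with a log2 fold change of 0.05 ± 0.07 (edgeR adjusted p = 0.834).

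Kif13b (chr14:64647265-64809617, plus strand), a kinesin-3 motor known to carry membrane receptors and phosphoinositide-bearing vesicles, had 168, 162 and 148 CPM in trained and 174, 186 and 180 CPM in untrained libraries. All trained libraries were below all untrained ones. The log2 fold change was -0.17 ± 0.07, and the edgeR adjusted p of 0.450 was the lowest of any kinesin. Over the 13 alternatives the log2 fold change of Kif13b ranged from -0.21 (without trained replicate 1) to -0.10 (without trained replicate 3). Its unadjusted p was below 0.05 in 7 of the 13. Among the fits that left out a library, only that without trained replicate 1 was below it, and the fit with a replicate block was not. Kif13a (chr13:46749087-46929867, minus strand), a motor of endosomes, had 61.5, 61.1 and 62.1 CPM in trained and 64.6, 70.5 and 70.4 CPM in untrained libraries. Its groups did not overlap either, and the log2 fold change was -0.15 ± 0.07 (edgeR adjusted p = 0.493).

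Kif16b (chr2:142617474-142901531, minus strand), a motor of early endosomes, had the lowest log2 fold change of the axonal class, -0.27 ± 0.11 (edgeR adjusted p = 0.462). Its values were 18.7, 16.7 and 17.3 CPM in trained and 22.1, 18.4 and 22.9 CPM in untrained libraries, and untrained replicate 2 lay below trained replicate 1. Over all 38 tested kinesins, 4 had every trained library below every untrained one (Kif13b, Kif13a, Kif2a and Kif11), where 8.69% of all tested genes did. In 2 kinesins, Kif6 and Kif7, every trained library was above, where 8.13% of all tested genes were.

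Kinesin-2, built from Kif3a with Kif3b or Kif3c and the adaptor Kifap3, serves both axons and cilia. Kif3a was at 85.8 ± 12.2 and 87.2 ± 7.13 CPM, Kif3b at 46.7 ± 4.90 and 52.9 ± 4.73 CPM and Kif3c at 128 ± 18.6 and 136 ± 10.2 CPM in trained and untrained cord. Within this family Kif3b took 16.8% of the summed level per kilobase in trained and 18% in untrained cord, and Kif3a 48.3% and 46.7%, both with no overlap of the groups. The summed family relative to Kifap3 was 0.851 ± 0.0426 and 0.841 ± 0.0193, which overlapped. Kif21a, a kinesin-4 motor of neurons mutated in a human eye movement disorder, was at 247 ± 17.5 and 278 ± 32.1 CPM. Kif21b was at 67.9 ± 4.27 and 67.4 ± 5.19 CPM. Kif17, a dendritic motor, was at 8.36 ± 1.12 and 8.12 ± 0.216 CPM and overlaps Sh2d5, which had more reads.

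As a class, 13 of the 15 axonal transport motors had a negative log2 fold change, against 52.0% of all tested genes. The class median was -0.13, with a range of -0.27 to 0.04. The class summed to 5782, 5526 and 4832 CPM in trained and 5419, 6114 and 5983 CPM in untrained replicates 1 to 3. The lowest sum was that of trained replicate 3, and trained replicate 1 lay above untrained replicate 1. Trained replicate 3 was the lowest library in 10 of the 15 genes and trained replicate 2 in 4, while trained replicate 3 was the lowest in 21.1% of all tested genes. Without trained replicate 3 the median was -0.05, and 10 of the 15 were negative. Without trained replicate 1 it was -0.15, and 14 were negative. The sign was negative in 9 of the 15 under every one of 13 alternative analyses. These reuse the same libraries, so they are not independent of the main fit.

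As a sum, neuron markers shared the lowest library of the axonal motors, trained replicate 3. Their log2 fold changes were positive in 3 and negative in 7, with a median of -0.04, against -0.13 for the axonal motors. The 10 neuron markers summed to 10180, 10199 and 8316 CPM in trained and 9286, 10364 and 10810 CPM in untrained libraries, and trained replicate 3 was lowest in 7 of the 10. Axonal transport motors amounted to 56.4% ± 2.0 of the neuron marker sum in trained and 57.6% ± 1.95 in untrained cord, and these overlapped. The 6 motor neuron markers all had negative log2 fold changes and summed to 208 to 259.4 CPM in trained and 259.5 to 293 CPM in untrained libraries. The part of neuronal RNA content in the kinesin values was not tested.

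**Figure D3:**
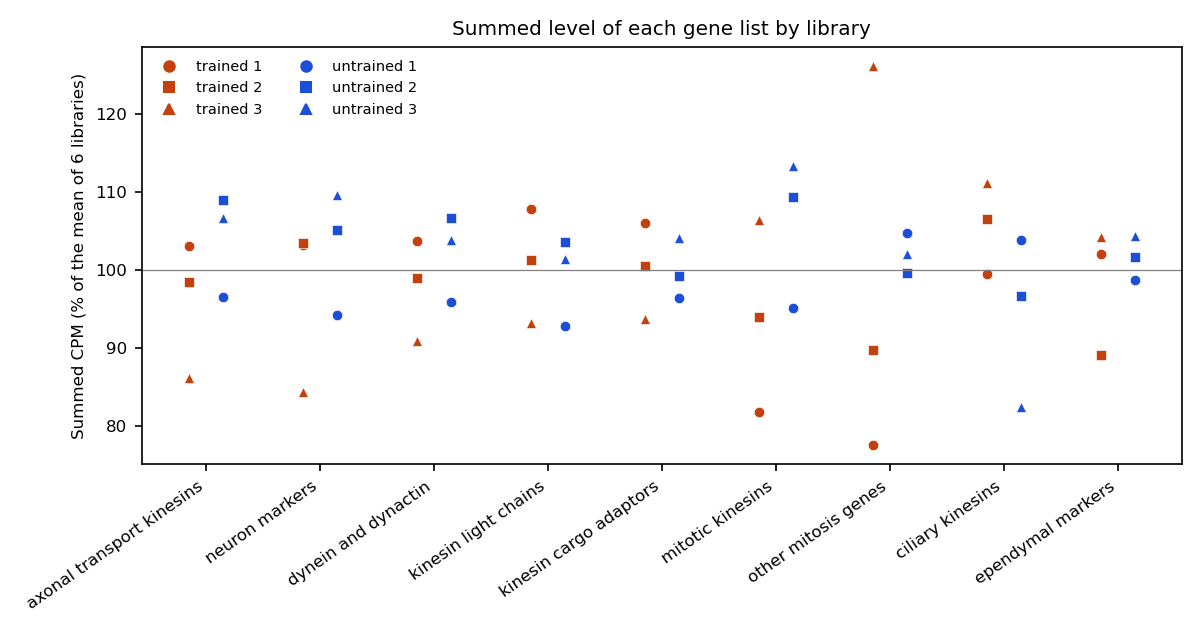
Summed CPM of each gene list in each library, as a percentage of that list's mean over the 6 libraries, with colour for the group and shape for the replicate. Trained replicate 3 is lowest for the axonal transport motors (86.1%) and for the neuron markers (84.3%), and trained replicate 1 is lowest for the mitotic motors (81.8%) and the other mitosis genes (77.6%).

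Partners of the axonal motors were read from lists set by function. Of 26 genes of dynein and dynactin, the motor and its cofactor for transport to the cell body, 0 passed the test, 8 had a positive and 18 a negative log2 fold change, and the median was -0.06. The smallest p belonged to Hook3, a dynein adaptor, at -0.28 ± 0.06 (edgeR adjusted p = 0.209), and the next to Nde1, a dynein regulator, at 0.24 ± 0.07 (edgeR adjusted p = 0.287). Trained replicate 3 was the lowest library in 15 of the 26. Of 23 tested kinesin cargo adaptors, 0 passed, 15 were positive and 8 negative, with a median of 0.01. The smallest p was that of Ppfia2, a liprin of synaptic vesicle transport, at 0.25 ± 0.10 (edgeR adjusted p = 0.448), followed by Rhot1, which links mitochondria to motors, at -0.13 ± 0.08 (edgeR adjusted p = 0.601).

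Mitotic kinesins were near the lower end of measured expression. The class median was 0.196 CPM per kb, against 24.1 CPM per kb for axonal transport motors, and no library had more than 82 counts of any of the 12. Kif11 builds the bipolar spindle by sliding microtubules apart, Kif23 bundles midzone microtubules for cytokinesis, and Kif22 pushes chromosome arms from the poles. A short element named CHR, for cell cycle genes homology region, is known from promoters of genes used in mitosis. RefSeq promoter windows of GRCm38.p6, running from 250 bases before to 50 bases after each start, were searched on both strands for its letters, TTTGAA. Stretches of the 30 bases before the start are shown for 3 mitotic kinesins with a match and for Kif5c, an axonal motor without one, with the match in capitals (TTCAAA, the letters of the other strand).
Kif11, chr19:37376352-37376381, plus strand: cgtctccatttTTCAAAattgaggcgcgga
Kif22, chr7:127042421-127042450, minus strand: ggggccccggtaaTTCAAAagagagaagcg
Kif15, chr9:122951051-122951080, plus strand: ggggcgccaaaTTCAAAtctgcggccatct
Kif5c, chr2:49619256-49619285, plus strand: gcagtgacgtcaccgtgccgaggcggggca

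The match began 19 bases before the RefSeq start in Kif11 and Kif15 and 17 bases before it in Kif22. In Kif22 and Kif15 the GENCODE annotation starts further upstream and places all 30 bases in an exon. Among the mitotic kinesins with a window, 9 of 11 (81.8%) held the letters, against 20.2% of 27025 genes with a window. The windows of Kif2c and Kif14 lay 3867 and 1505 bases from the deposited gene start. Their matches began 103 and 228 bases before the RefSeq start. In Kif4 the RefSeq start lay 328 bases downstream of the deposited gene start, and the 30 bases before it were all in a GENCODE exon. The match began within 30 bases of the start, on either side of it, in 7 of the 11 (63.6%), against 3.66% of all genes. It lay before the start in Kif11, Kif15 and Kif22, and after it in Kif4, Kif23, Kif20b and Kif18b. Of axonal transport motors with a window, 1 of 11 (9.09%) held it, at a second start of Kif1a. Of 15 mitosis genes other than kinesins, 11 (73.3%) held it. CCAAT, the Y box, was found in 7 of 11 mitotic kinesins (63.6%), 3 of 11 axonal motors (27.3%) and 41.1% of all genes; the letters of both motifs can share an end base. The windows cover 35 of the 43 kinesin genes, and a match is a description of the letters only.

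**Figure D4:**
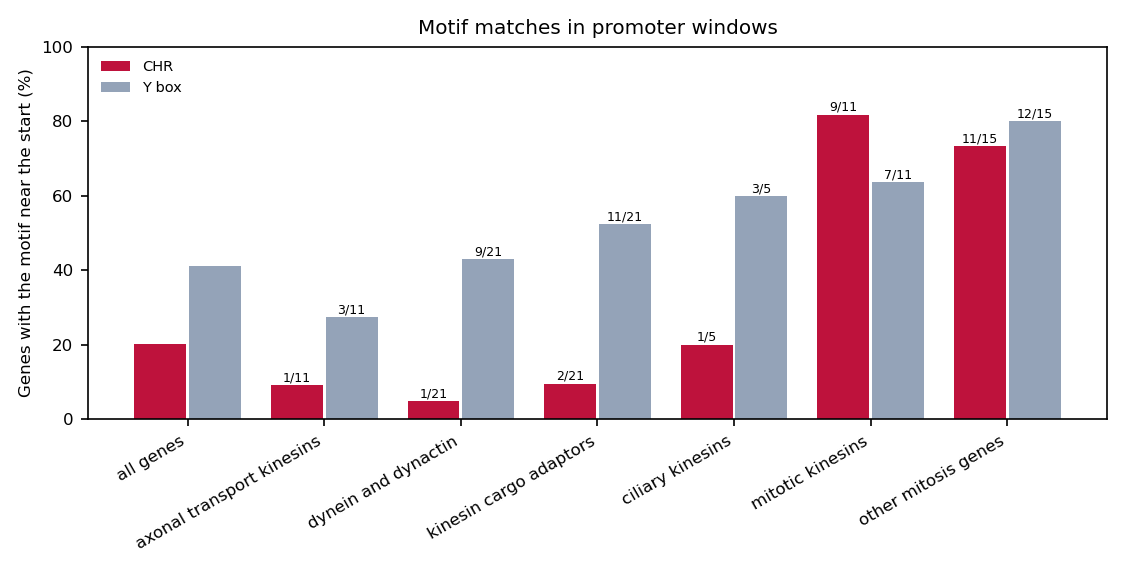
Percentage of genes with the letters of CHR (TTTGAA, red) or of the Y box (CCAAT, grey) in a RefSeq window around the start, by gene list. Both strands were searched, and the number of genes stands above each bar except for all genes. The CHR letters were found in 81.8% of mitotic kinesins, 73.3% of the other mitosis genes, 9.09% of axonal transport motors and 20.2% of all genes.

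Kif11 (chr19:37376403-37421859, plus strand) had 2.17, 2.47 and 2.73 CPM in trained and 3.0, 2.76 and 4.35 CPM in untrained libraries, from 40 to 68 counts each. All trained libraries were below all untrained ones. The log2 fold change was -0.46 ± 0.25 (edgeR adjusted p = 0.555), and its interval ran from a fold of 0.498 to 1.06. Over the 13 alternatives the log2 fold change of Kif11 ranged from -0.58 (without untrained replicate 2) to -0.24 (without untrained replicate 3). Untrained replicate 3 was the library with the highest value. Kif23 (chr9:61915905-61946774, minus strand) had 1.2, 1.05 and 1.74 CPM in trained and 1.75, 2.16 and 1.66 CPM in untrained libraries. Untrained replicate 3 lay below trained replicate 3, and the log2 fold change was -0.49 ± 0.31 (edgeR adjusted p = 0.630).

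Kif22 (chr7:127027729-127042471, minus strand) was the highest of the class per kilobase, at 0.777 CPM per kb. It had 2.79, 4.2 and 5.09 CPM in trained and 3.77, 4.09 and 2.94 CPM in untrained libraries, so trained libraries were both the lowest and the highest. Its log2 fold change was 0.15 ± 0.26 (edgeR adjusted p = 0.890), which ranged from -0.04 (without trained replicate 3) to 0.36 (without trained replicate 1) as single libraries were left out. Kif20a, a motor of the central spindle, was at 1.74 ± 0.650 and 2.05 ± 0.774 CPM and overlaps Cdc23, which had more reads. Kif4 and Kif18a likewise overlap genes with more reads, Pdzd11 and Mettl15. Kif20b had a log2 fold change of -0.51 ± 0.39. This was -0.21 without trained replicate 2, -0.25 without untrained replicate 1 and -0.74 without trained replicate 3. Kif2c had one of -0.55 ± 0.41, which was -0.21 without untrained replicate 2 and -0.74 without untrained replicate 3. Kif18b and Kif14 had at most 15 counts in any library and were not tested, and Kif2b had 0 counts in all 6 libraries.

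Of the 9 tested mitotic motors, 7 had a negative log2 fold change, with a median of -0.22. The class summed to 15.4, 17.7 and 20 CPM in trained and 17.9, 20.5 and 21.3 CPM in untrained replicates 1 to 3, and the groups overlapped. Trained replicate 1 was the lowest library in 5 of the 9, and in 18.7% of all tested genes. That library was also lowest in 6 of 6 fibroblast markers, which summed to 157 to 671 CPM in trained and 351 to 589 CPM in untrained libraries. It was lowest in 4 of 6 microglia markers, which all had negative log2 fold changes (median -0.24) and summed to 512 to 649 CPM in trained and 615 to 726 CPM in untrained libraries. None of the fibroblast and microglia markers was at 0. Trained replicate 1 was also lowest in 3 of 5 endothelial markers, but in only 1 of 6 astrocyte and 0 of 10 neuron markers. It was the highest library in 6 of 6 oligodendrocyte markers. The part of any of these cell types in the mitotic values was not tested. The 19 other mitosis genes had 0 past the test, 5 positive and 14 negative log2 fold changes and a median of -0.05. Their sums were 47.7, 55.3 and 77.6 CPM in trained and 64.5, 61.3 and 62.8 CPM in untrained libraries. The trained libraries thus ranged on both sides of the untrained ones, with trained replicate 1 lowest in 10 of the 19 genes and trained replicate 3 highest in 10. The smallest p values were those of Cdc20, the activator of the anaphase-promoting complex, at -0.61 ± 0.27 (edgeR adjusted p = 0.493) and of the cyclin gene Ccnb1 at -0.71 ± 0.35 (edgeR adjusted p = 0.518). Relative to these genes, mitotic kinesins were at 30% ± 3.66 in trained and 31.7% ± 3.47 in untrained cord.

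**Figure D5:**
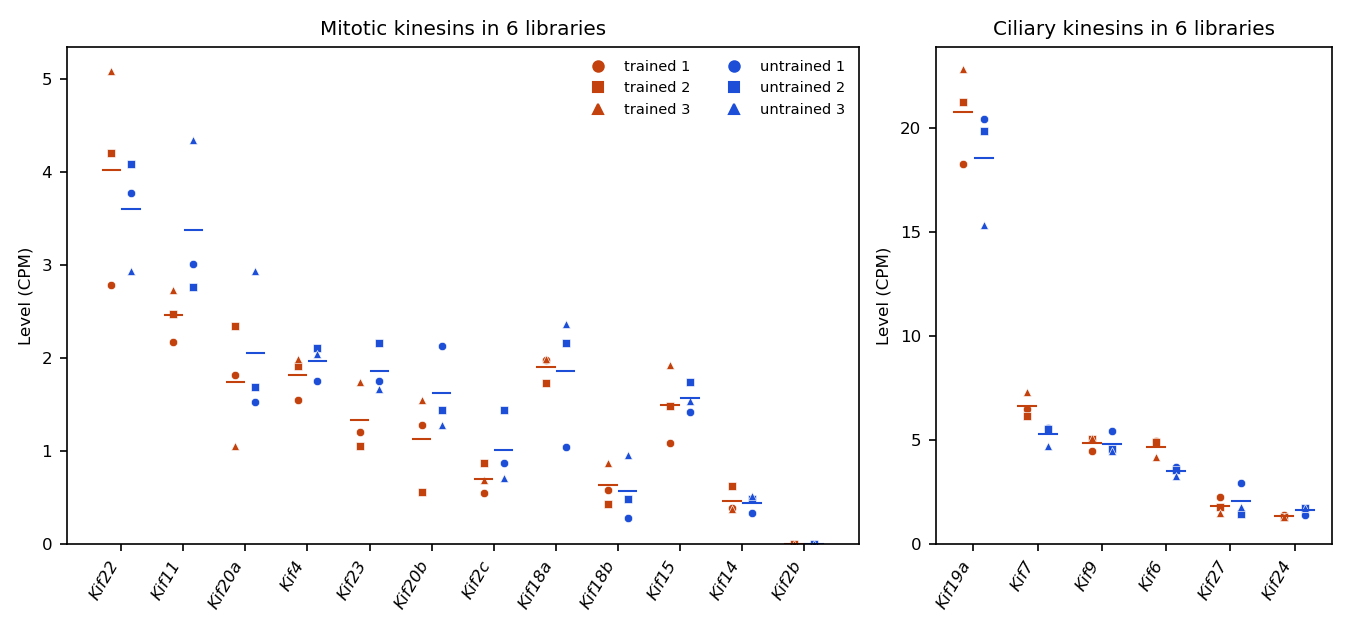
Level of the 12 mitotic motors (left panel) and 6 ciliary motors (right panel, with its own axis) in each of the 6 libraries, in CPM, with a bar at each group's mean. Trained and untrained points mix in most genes; in Kif6 and Kif7 all trained points lie above the untrained ones, and in Kif11 all lie below.

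Ciliary kinesins were low in this tissue, with a class median of 0.903 CPM per kb. Kif19a (chr11:114765388-114790739, plus strand), which trims motile cilia by taking microtubules apart at their tips, was the highest, at 20.8 ± 2.32 CPM in trained cord and 18.6 ± 2.80 CPM without training. Kif7 (chr7:79698098-79715720, minus strand), a regulator of Hedgehog signalling at the ciliary tip, had 6.47, 6.18 and 7.32 CPM in trained and 5.57, 5.53 and 4.73 CPM in untrained libraries. All trained libraries were above all untrained ones, with a log2 fold change of 0.33 ± 0.17 (edgeR adjusted p = 0.536). Kif7 overlaps an antisense transcript, 9330171B17Rik, and Ticrr, whose summed reads were 55.3% of its own.

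Kif6 (chr17:49615136-49909847, plus strand), linked to ependymal cilia and named here after its values were seen, had 4.96, 4.88 and 4.16 CPM in trained and 3.71, 3.54 and 3.26 CPM in untrained libraries. Its groups did not overlap, at 51 to 128 counts per library, and the log2 fold change was 0.41 ± 0.20 (edgeR adjusted p = 0.514). Kif9, of motile cilia, was at 4.87 ± 0.360 and 4.82 ± 0.515 CPM. The class had 4 positive and 2 negative log2 fold changes and a median of 0.08. Of 8 markers of ependymal cells, the ciliated cells that line the central canal, 0 passed the test, and their median log2 fold change was -0.02. They summed to 65.8 to 77.1 CPM over the 6 libraries, with the lowest sum in trained replicate 2.

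Of the other motors, Kif2a (chr13:106958996-107022126, minus strand) disassembles microtubules and limits the growth of axon branches. It had 63.5, 67.1 and 61.0 CPM in trained and 67.6, 72.9 and 72 CPM in untrained libraries. The groups did not overlap, and the log2 fold change was -0.15 ± 0.07 (edgeR adjusted p = 0.515). Its range over the 13 alternatives was -0.18 (without trained replicate 2) to -0.10 (without trained replicate 3). Kif2a overlaps Dimt1, whose reads were 10.5% of its own. Kif26a, an atypical kinesin without motor activity, was at 12.2 ± 2.11 and 14 ± 2.44 CPM, and its relative Kif26b at 27.5 ± 4.02 and 25.0 ± 2.91 CPM, in trained and untrained cord. Kif28 had 0 to 5 counts and Kif12 0 or 1 count per library, and neither was tested.

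Summed over all kinesin genes per kilobase, axonal transport motors took 65.7%, 65.8% and 64.3% in trained and 66.8%, 67.5% and 67.5% in untrained replicates 1 to 3. Light chains took 29.3%, 28.7% and 29.8% in trained and 27.7%, 27.4% and 27.6% in untrained libraries. Neither share overlapped between groups, but both are parts of the same sum and not independent. Of all tested genes taken singly, 8.69% were lower and 8.13% higher without overlap. Mitotic motors took 0.324% ± 0.0652 and 0.345% ± 0.0222 of the sum and overlapped.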

How the data were processed

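Raw read counts per gene, not normalized, were deposited by the authors in 1 table, beside symbols, coordinates and gene lengths. Bowtie 0.12.2 and 2 builds, mm8 and mm9, are named without a role in the submitters' processing notes. What counted the reads, on which annotation and with which strand setting is not given in the sources used here. Of the 43 members, 42 have the coordinates of GENCODE M21 (GRCm38), and all coordinates are 1-based.

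Counts of all genes were fitted in R 4.3.3 by the robust quasi-likelihood method of edgeR 4.0.16, with the group as sole term (n = 3 per group), TMM factors and the filterByExpr filter. Adjusted p-values are from Benjamini-Hochberg adjustment over 16909 tested genes, with a threshold of 0.05. The step was tested on simulated data. CPM values are TMM-scaled, and CPM per kb divides them by the table's gene length. For 40 of the 43 members that length is the merged exon length in GENCODE M21, and for Kif5b, Kif11 and Kif20a it is shorter. An SE is the log2 fold change divided by the square root of its F statistic. Shares, ratios and sums are descriptions. Alternatives were 2 other scalings, DESeq2 1.42.0, limma 3.58.1 (voom), 2 filters, a replicate block and leaving out each library.

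The members and lists were chosen with earlier results of these data known. Named kinesins were those with an unadjusted p below 0.05, the 3 highest per class per kilobase, all Kif1, Kif5 and Klc genes, Kif11 and Kif23. Other kinesins are given by level or log2 fold change, and of other lists the 2 genes of smallest p. Genes named because their groups did not overlap were chosen after their values were seen.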

Additional observations from a re-analysis of the deposited data

How the results depend on the processing

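Kinesin genes past the edgeR threshold numbered 0 in each of the 13 alternatives, and the lowest adjusted p of any kinesin there was 0.248, without trained replicate 3. Over all genes, 10 passed, against 86 with DESeq2, 276 without a filter on low counts and 5 with a replicate block; leaving out 1 library gave 4 (without trained replicate 2) to 221 (without trained replicate 3), with 21 without trained replicate 1. The axonal median of -0.13 ranged from -0.15 (without trained replicate 1) to -0.05 (without trained replicate 3). The mitotic median of -0.22 was -0.12 with Cenpe and Kifc1 added and ranged from -0.29 (without trained replicate 3) to -0.10 (without untrained replicate 3). The cause of these shifts was not tested. With the replicate block, no kinesin had an unadjusted p below 0.05; deviations of same-numbered libraries correlated at -0.26, -0.07 and -0.20, and 0 of 6 libraries correlated best with its own number, so numbers were not taken as pairs. Signs flipped most without trained replicate 3, in 9 kinesins, among them Kif5a (0.06), Kif1a (0.0020) and Klc2 (0.09). Depth limits the mitotic class, with at most 82 counts per gene and library.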

Other observations

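Kinesin genes outside the name rule were Cenpe, Kifc1, Kifc2, Kifc3 and Kifc5b. Of these 5, 0 passed edgeR's test, and the median log2 fold change was -0.03. Kifc2, a minus-end motor of neurons, was at 124 ± 6.87 CPM in trained cord and 127 ± 3.14 CPM without training. Kifc3, also a minus-end motor, was at 61.2 ± 2.51 and 57.5 ± 1.08 CPM, with every trained library above every untrained one and a log2 fold change of 0.09 ± 0.07 (edgeR adjusted p = 0.695). Cenpe, a motor that moves chromosomes to the spindle equator, was at 2.28 ± 0.935 and 2.46 ± 0.800 CPM. Kifc1 and Kifc5b had log2 fold changes of 0.25 ± 0.24 and -0.48 ± 0.26 (edgeR adjusted p = 0.773 and 0.554). They are closely related copies, and both values are uncertain because how the authors' counting treated reads shared by them was not tested.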
